A study of Mus musculus with 29 samples.

Results

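Cytochrome P450 genes were described here by the chromatin type that covers them in a map of H2A ubiquitylation made from mouse oocytes and early embryos. The members are the protein-coding genes on chromosomes 1 to 19 whose symbol is Cyp, a family number, a subfamily letter and a gene number. They number 92 of 20558 protein-coding genes on those chromosomes. A member within 100 kb of another member was called clustered, and a run of such members a cluster. By that rule 67 members lay in 18 clusters of 2 to 8 genes, and 25 stood single.

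Cytochrome P450 enzymes are haem proteins that insert an oxygen atom into their substrates, using electrons passed on by partner proteins. Some act on 1 kind of natural compound, such as cholesterol, a steroid hormone, vitamin D or retinoic acid, and are used in particular tissues. Others, mostly of families 1 to 4, act on many drugs, plant compounds and fatty acids, are best known from liver, and in rodents often sit in arrays of similar copies. H2Aub, the ubiquitylation of a lysine near the end of histone H2A, is laid down by Polycomb repressive complex 1, and H3K27me3, a methylation of histone H3, by Polycomb repressive complex 2, of which Eed is a subunit.

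The study profiled H2Aub and H3K27me3 by CUT&RUN, which cuts out the DNA around an antibody bound in the nucleus, in 29 libraries of 16 groups. Of these, 24 measured H2Aub and 5 measured H3K27me3. The groups held 1 to 3 libraries each, and where the labels give a number, a library pooled many oocytes or embryos, except that each epiblast library came from 1 epiblast. What was deposited for the series as a whole, and analysed here, is 1 segmentation of the genome into 5 types of H2Aub. Which of the libraries went into it is not given.

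The 16 wild-type H2Aub libraries covered oocytes at the germinal vesicle stage and at metaphase II, then zygotes, embryos of 2 and of 4 cells, morulae, the inner cell mass and the E6.5 epiblast. Metaphase II oocytes were B6/DBA and germinal vesicle oocytes B6/129 mixed, and the embryos had a PWK father and a mother of either background. The libraries called wild type in the B6/129 mixed background carried floxed Eed, labelled Eed (fl/fl), with no driver named. The 6 libraries without maternal Eed, from germinal vesicle oocytes, 4-cell embryos and morulae, were labelled Gdf9-Eed (fl/fl), a deletion driven from an oocyte gene, in the B6/129 mixed background. A further 6 libraries came from 4-cell embryos of the B6/DBA x PWK cross that were labelled as control or overexpression of PR-DUB, an enzyme complex that removes H2Aub. The last was an H3K27me3 library of B6/DBA germinal vesicle oocytes.

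The segmentation labels each stretch of mm10 with a type from 1 to 5 in steps of 5 kb. It comes with no key, so a type is a name here and neither a level of H2Aub nor a stage. No value belongs to a library, so no stage, genotype or replicate could be compared, the depth is unknown, and no test over samples was possible. Genes of 1 cluster share segments and ancestry and are not replicates, so the shares below are descriptions set beside the same shares of all protein-coding genes. A gene took the type that covered the largest share of its body. No type exceeded 50% in 346 of the 20558 protein-coding genes and in 0 of the 92 members.

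The 92 P450 genes as a whole were spread over all 5 types. Type 1 held 31 members (33.7%), against 37.2% of all protein-coding genes. Type 2 held 6 (6.52%), against 5.44%, and type 5 held 9 (9.78%), against 9.53%. Type 3 held 25 (27.2%), against 33.8%, and type 4 held 21 (22.8%), against 14%. For types 1 and 3 the side on which the members fell depended on the counting. With each cluster counted once, type 3 held 17 of 43 units (39.5%). With the wider symbol rule described below, type 1 held 38 of 99 genes (38.4%).

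The shares of clustered and single members were less alike. Of the 67 clustered members 29 (43.3%) were of type 1, and of the 25 single members 2 (8%) were, Cyp20a1 and Cyp39a1. Type 3 held 13 single members (52%) and 12 clustered ones (17.9%). Type 4 held 7 single members (28%) and 14 clustered ones (20.9%). Types 3 and 4 together, a pairing made after the values were seen, covered 20 of 25 single members (80%) and 26 of 67 clustered members (38.8%), against 47.8% of all protein-coding genes. Type 5 held 8 clustered members (11.9%) and 1 single one, Cyp4v3. Type 2 held 4 clustered members (5.97%) and 2 single ones (8%).

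**Figure D1:**
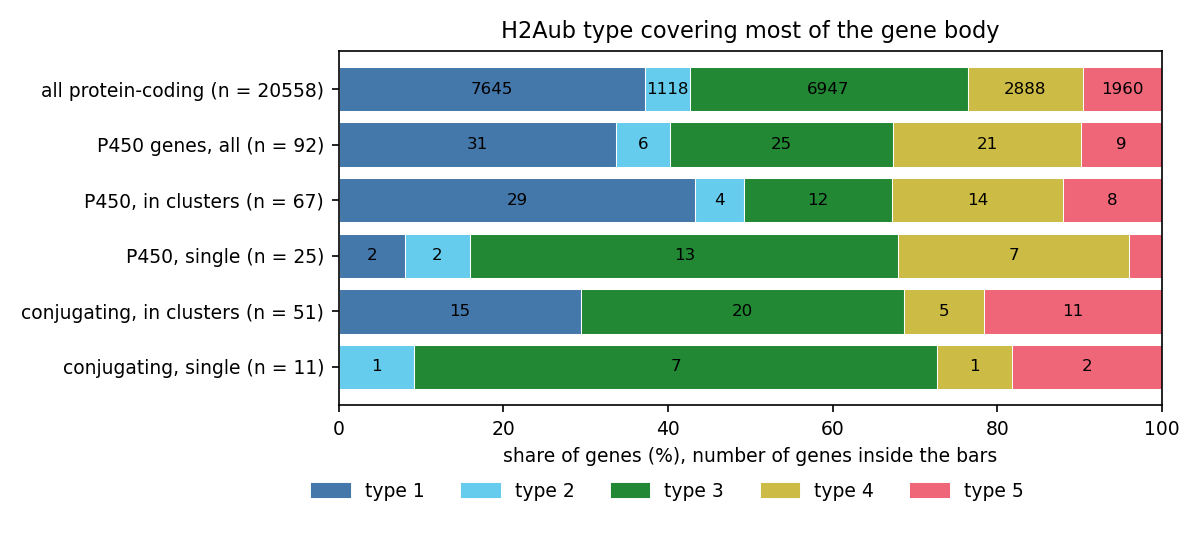
Bars give the percentage of genes of each H2Aub type, the type with the largest share of the gene body. Groups are all 20558 protein-coding genes, the 92 P450 genes, the 67 in clusters and the 25 single ones. Also shown are 51 clustered and 11 single genes of conjugating enzymes (Ugt, Gst and Sult). Numbers of genes are written inside the bars. Among P450 genes type 1 makes up 43.3% of the clustered genes and 8% of the single ones, and type 3 makes up 17.9% and 52%.

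The share of type 1 among single genes moved with the distance that defines a cluster. At 50 kb, which breaks up the looser arrays, 10 of 38 single members (26.3%) and 21 of 54 clustered members (38.9%) were of type 1. With the symbol rule widened to Cyp51, a second letter or a trailing letter, 4 of 26 single genes (15.4%) were of type 1. It was 3 of 25 (12%) by the type at the higher end, with 5 kb added on each side, or with pseudogenes added. Just inside the limit, Cyp2d9 and Cyp2d12 were 98.22 kb apart. Just outside it were Cyp2c66 and Cyp2c29, at 100.3 kb, Cyp2c69 and Cyp2c37, at 105.7 kb, and the single genes Cyp4x1 and Cyp4a29, at 108 kb. Cyp4a29 counts as single only by the symbol rule. That rule leaves out Cyp4a12a, Cyp4a12b and Cyp4a30b, which lie between it and Cyp4a14 and join it to the Cyp4a array.

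Within each of types 1, 3 and 4, P450 promoters were mostly poor in CpG, with extremes that were CpG-rich or nearly free of CpG. A window of 300 bases, from 250 before to 50 after the start site, was read from a RefSeq table of GRCm38.p6, the mm10 assembly, and 72 of 92 members had one. The 2 windows shown for each of types 1, 3 and 4 are those with the highest and the lowest ratio of observed to expected CpG, the dinucleotide that vertebrate DNA methylation acts on. The high ones are exceptions. A ratio of at least 0.5 was found in 1 of 26 windows of type 1, 4 of 18 of type 3 and 1 of 16 of type 4. Each is written 5′ to 3′ on the strand of the gene, with every CpG in capitals. Cyp20a1, an orphan P450 of unsettled substrate, and Cyp3a59, a member of the drug-metabolising Cyp3a array, were both wholly of type 1. The Cyp20a1 window (chr1:60343050-60343349, + strand) had 20 CpG and a ratio of 0.672, and the Cyp3a59 window (chr5:146079008-146079307, + strand) had 0 CpG.
Cyp20a1: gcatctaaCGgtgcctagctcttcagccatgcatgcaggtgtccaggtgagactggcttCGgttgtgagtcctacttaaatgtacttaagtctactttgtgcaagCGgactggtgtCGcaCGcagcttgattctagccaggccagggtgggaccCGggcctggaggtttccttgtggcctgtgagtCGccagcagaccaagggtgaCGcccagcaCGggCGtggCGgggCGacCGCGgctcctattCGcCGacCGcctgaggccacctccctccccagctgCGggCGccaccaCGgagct
Cyp3a59: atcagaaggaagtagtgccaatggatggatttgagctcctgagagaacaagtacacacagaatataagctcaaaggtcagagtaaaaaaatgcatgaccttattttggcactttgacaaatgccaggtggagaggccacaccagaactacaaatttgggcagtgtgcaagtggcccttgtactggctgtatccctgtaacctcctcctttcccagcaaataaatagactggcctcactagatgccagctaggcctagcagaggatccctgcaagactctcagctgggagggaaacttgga

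Cyp46a1, the cholesterol 24-hydroxylase of neurons, and Cyp2f2, a lung enzyme that activates naphthalene, were both wholly of type 3. The Cyp46a1 window (chr12:108334066-108334365, + strand) had 31 CpG and the highest ratio of the 72 members, 0.972. The Cyp2f2 window (chr7:27119705-27120004, + strand) had 0 CpG.
Cyp46a1: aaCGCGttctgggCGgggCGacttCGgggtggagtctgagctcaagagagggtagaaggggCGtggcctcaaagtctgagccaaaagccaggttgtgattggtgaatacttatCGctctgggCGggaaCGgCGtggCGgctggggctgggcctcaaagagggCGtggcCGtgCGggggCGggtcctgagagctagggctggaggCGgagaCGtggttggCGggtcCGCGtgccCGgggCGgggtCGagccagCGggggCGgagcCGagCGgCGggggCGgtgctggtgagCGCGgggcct
Cyp2f2: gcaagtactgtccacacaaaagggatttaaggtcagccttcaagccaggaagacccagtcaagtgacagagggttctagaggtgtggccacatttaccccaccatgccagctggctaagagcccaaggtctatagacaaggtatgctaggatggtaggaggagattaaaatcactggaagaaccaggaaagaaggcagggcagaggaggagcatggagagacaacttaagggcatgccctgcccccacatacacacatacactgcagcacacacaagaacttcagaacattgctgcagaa

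Cyp2s1, an enzyme of epithelia, and Cyp2d9, a steroid 16-alpha-hydroxylase of male liver, were both wholly of type 4. The Cyp2s1 window (chr7:25816476-25816775, - strand) had 17 CpG and a ratio of 0.571, and the Cyp2d9 window (chr15:82452127-82452426, + strand) had 1 CpG and a ratio of 0.0556.
Cyp2s1: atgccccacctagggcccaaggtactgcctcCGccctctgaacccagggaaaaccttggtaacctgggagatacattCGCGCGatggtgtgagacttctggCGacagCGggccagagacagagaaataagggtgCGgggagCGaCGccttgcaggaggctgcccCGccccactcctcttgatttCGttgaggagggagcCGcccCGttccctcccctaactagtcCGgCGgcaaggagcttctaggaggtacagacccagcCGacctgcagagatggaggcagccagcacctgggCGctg
Cyp2d9: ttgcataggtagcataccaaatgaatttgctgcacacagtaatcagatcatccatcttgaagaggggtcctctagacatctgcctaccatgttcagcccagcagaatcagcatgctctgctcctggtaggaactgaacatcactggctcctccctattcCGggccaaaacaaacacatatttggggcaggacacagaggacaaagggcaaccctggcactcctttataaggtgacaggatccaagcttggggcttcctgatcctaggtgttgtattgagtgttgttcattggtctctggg

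Across the 72 windows the median ratio was 0.159, with a range of 0 to 0.972, against a median of 0.595 for 16457 protein-coding genes with a window. A ratio of at least 0.5 was found in 7 members (9.72%), against 56.3% of all genes. They were Cyp46a1, Cyp26a1, Cyp4v3, Cyp2r1, Cyp20a1, Cyp1b1 and Cyp2s1, of which 5 stood single and 2 were clustered, and 4 of the 7 were of type 3. The median was 0.127 in 56 clustered members and 0.306 in 16 single ones. Outside the lists of hormone, vitamin and bile acid genes described below, which take out Cyp2r1, the median was 0.13 in 39 Cyp2 genes, 0.0639 in 7 Cyp3 genes and 0.187 in 12 Cyp4 genes.

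P450 genes had CpG-poor promoters in type 1, the type in which other genes had the richest. The median of 26 members of type 1 was 0.112, against 0.718 for all protein-coding genes of that type. It was 0.201 in 18 members of type 3, against 0.623, and 0.189 in 16 members of type 4, against 0.456. In type 5 the 9 members, at 0.174, lay close to the median of all genes of the type, 0.192. The 3 members of type 2 with a window had a median of 0.256, against 0.567. The member medians thus lay between 0.112 and 0.256 in every type, while those of all genes ran from 0.192 to 0.718.

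**Figure D2:**
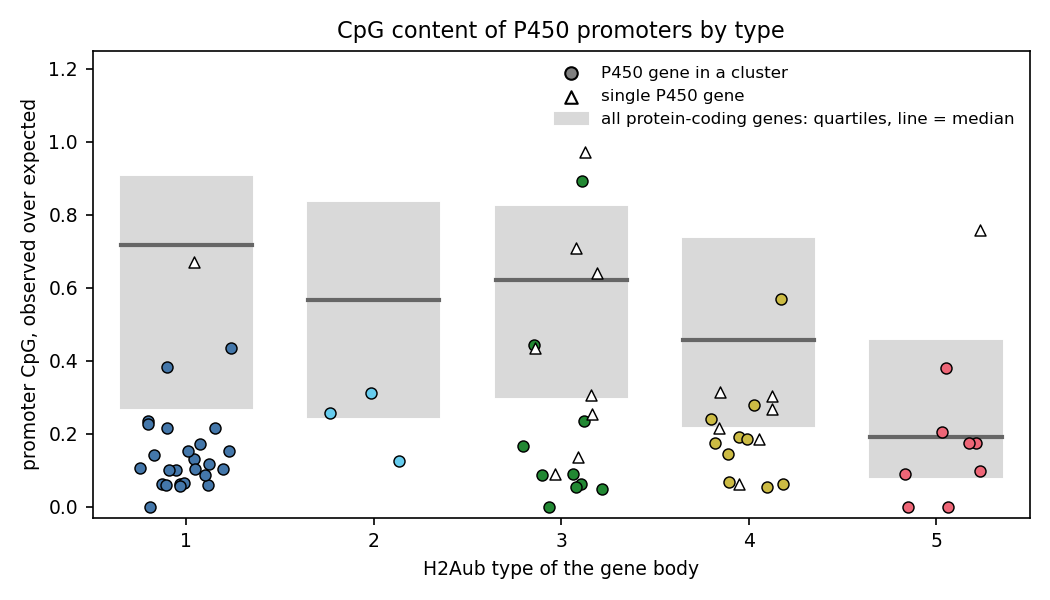
Each point is 1 of the 72 P450 genes with a promoter window (circles clustered, triangles single), placed by its H2Aub type and its ratio of observed to expected CpG, over grey boxes from the lower to the upper quartile of all protein-coding genes of the type with a line at their median. In type 1 all 26 members lie below that line, at 0.718, and in type 5 they lie around it, at 0.192.

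Members of 4 lists of genes that act on 1 class of natural compound were mostly of types 3 and 4. Lists for retinoic acid, steroid hormones, vitamin D, and bile acids with cholesterol held 18 members in all, of which 14 stand single. Of the 18, 10 (55.6%) were of type 3, 5 (27.8%) of type 4, 2 of type 2, 1 of type 1 and 0 of type 5. Types 3 and 4 together covered 15 of 18 (83.3%), against 47.8% of all protein-coding genes. This pairing, too, was made after the values were seen. Single members outside the lists had like shares, with 5 of 11 (45.5%) of type 3 and 4 (36.4%) of type 4. The shares were thus not particular to the listed genes.

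The retinoic acid hydroxylases of family 26 clear retinoic acid, the vitamin A derivative that patterns the embryo. Cyp26c1 and Cyp26a1 lie 16.4 kb from end to end on chromosome 19, and both were wholly of type 3, inside 1 segment of 95 kb (chr19:37650001-37745000) that holds no other protein-coding gene whole. Cyp26b1, on chromosome 6, was wholly of type 4, in a segment of 520 kb (chr6:84085001-84605000). The windows of the pair on chromosome 19 were of unlike composition within 1 segment, but they are not placed alike. The Cyp26a1 window (chr19:37697558-37697857, + strand) had 26 CpG and a ratio of 0.894. The Cyp26c1 window (chr19:37685430-37685729, + strand) had 5 CpG and a ratio of 0.235. It lies wholly inside the annotated gene body, which begins at chr19:37685112. The Cyp26a1 window spans the beginning of its gene, at chr19:37697738. The 2 ratios thus do not compare like positions. The Cyp26b1 window had a ratio of 0.314.
Cyp26a1: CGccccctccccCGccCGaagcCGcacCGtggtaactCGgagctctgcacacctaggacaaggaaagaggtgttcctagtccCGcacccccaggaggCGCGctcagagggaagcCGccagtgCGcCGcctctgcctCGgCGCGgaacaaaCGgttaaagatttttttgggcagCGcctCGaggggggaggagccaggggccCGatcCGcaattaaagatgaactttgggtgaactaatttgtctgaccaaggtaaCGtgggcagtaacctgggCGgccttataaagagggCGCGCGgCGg
Cyp26c1: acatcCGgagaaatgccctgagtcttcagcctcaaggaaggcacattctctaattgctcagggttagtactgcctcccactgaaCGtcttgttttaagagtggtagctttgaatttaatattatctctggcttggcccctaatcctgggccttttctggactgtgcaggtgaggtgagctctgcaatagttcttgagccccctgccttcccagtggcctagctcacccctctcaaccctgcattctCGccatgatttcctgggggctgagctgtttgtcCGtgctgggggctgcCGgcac

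The steroid hormone enzymes split between types 3 and 4. Cyp11a1, which cuts the side chain of cholesterol to start steroid synthesis, Cyp17a1, needed for androgens, and Cyp21a1, the 21-hydroxylase of corticoid synthesis, were each wholly of type 3. Cyp11b1 and Cyp11b2, which complete corticosterone and aldosterone, share a segment of type 4 of 25 kb (chr15:74835001-74860000) that lies between segments of type 5. It covered 98.4% of Cyp11b1 and all of Cyp11b2. Cyp19a1, the aromatase that makes oestrogens, was divided, with 52.0% of its body in type 4 and 48.0% in type 3.

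The vitamin D enzymes were all of type 3. Cyp27b1, which makes the active hormone, and Cyp24a1, which destroys it, lay wholly in that type. Cyp2r1, the 25-hydroxylase of the liver, had 62.3% of its body in type 3, in a segment of 10 kb, and 37.7% in type 1.

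The list of genes for bile acids and cholesterol was the most mixed of these, with members of all types but 5. It does not include Cyp2c70, which makes muricholic bile acids and had 51% of its body in type 5 and 49% in type 1. Cyp7a1, the rate-limiting enzyme of bile acid synthesis, and Cyp7b1, the oxysterol 7-alpha-hydroxylase, were wholly of type 2, although they lie on chromosomes 4 and 3. Cyp27a1, the sterol 27-hydroxylase of mitochondria, and Cyp46a1 were wholly of type 3, and Cyp8b1, the sterol 12-alpha-hydroxylase, wholly of type 4. Cyp39a1, another oxysterol hydroxylase, crossed 3 types, with 77.3% in type 1, 21.0% in type 2 and 1.7% in type 3.

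**Figure D3:**
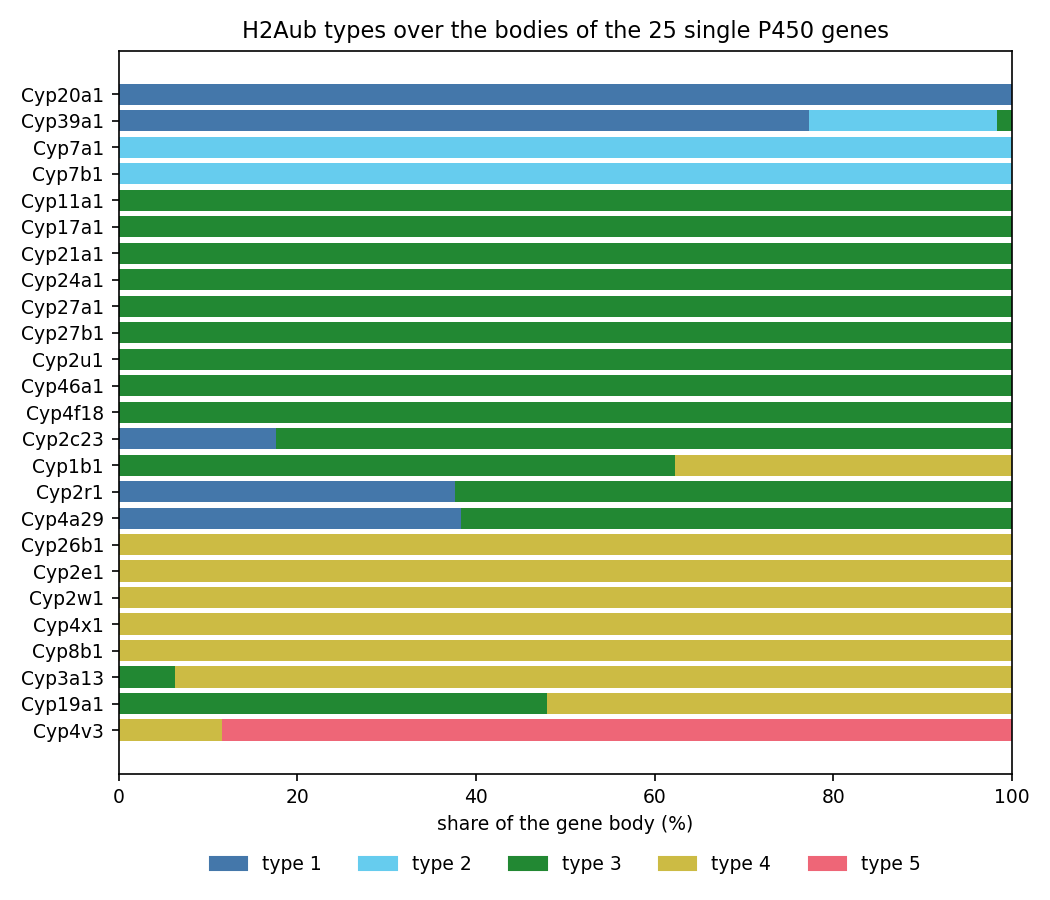
Stacked bars give, for each of the 25 single P450 genes, the percentage of the gene body in each H2Aub type. Types 3 and 4 cover most of 20 of them, and Cyp20a1 and Cyp39a1 are the only ones mostly of type 1.

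The 74 members outside those lists were divided into 30 of type 1, 4 of type 2, 15 of type 3, 16 of type 4 and 9 of type 5. Here too single and clustered genes differed in type 1, with 29 of 63 clustered members (46%) and 1 of 11 single ones (9.09%). The low share of type 1 among single genes was therefore also seen without the hormone, bile acid and vitamin genes, although on 11 genes.

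Family 1, whose members oxidise aromatic pollutants and are switched on through the receptor Ahr, was of types 3 and 4. Cyp1a2 was wholly of type 3. Its neighbour Cyp1a1 had 62.9% of its body in a segment of type 4 of 10 kb and 37.1% in type 3. Cyp1b1, single on chromosome 17, had 62.3% in type 3 and 37.7% in type 4.

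Family 2, the largest, gave most of the type 1 and type 5 members. Leaving out Cyp2r1, which is in the vitamin D list, family 2 had 46 members, of which 20 were of type 1, 9 of type 4, 8 of type 5, 7 of type 3 and 2 of type 2. All 20 of type 1 were among the 42 clustered genes. The 4 single genes were Cyp2c23, a renal epoxygenase of arachidonic acid, with 82.4% in type 3, Cyp2u1, wholly of type 3, and Cyp2w1 and the ethanol-induced Cyp2e1, both wholly of type 4. Cyp2c23 thus stood apart from the other Cyp2c genes, which lie in the array nearer the start of chromosome 19 and include no other gene of type 3.

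Subfamilies of family 2 differed from each other. All 4 Cyp2a genes, which include the coumarin hydroxylase Cyp2a5, were wholly of type 1. Of 15 Cyp2c genes, 7 were of type 1, 6 of type 5, 1 of type 2 and 1 of type 3. The 8 Cyp2d genes, relatives of the human drug-metabolising CYP2D6, were of types 3 (3 genes) and 4 (5 genes). Among 7 Cyp2j genes, which epoxidise fatty acids, 4 were of type 1, 2 of type 5 and 1 of type 2. Among 5 Cyp2b genes 3 were of type 1, and Cyp2b10, which phenobarbital induces, was wholly of type 4.

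Family 3, relatives of the main human drug-metabolising enzyme CYP3A4, was chiefly of type 1, with 5 of 7 genes. Cyp3a11, the best-known of them in mouse liver, had 59.4% of its body in type 2, 39.0% in type 4 and 1.56% in type 1. The single Cyp3a13, far from the array on the same chromosome, had 93.7% in type 4. Family 4, the omega-hydroxylases of fatty acids and eicosanoids, had 17 genes, of which 6 were of type 3, 5 of type 4, 4 of type 1 and 1 each of types 2 and 5. Its 4 single genes were Cyp4f18, wholly of type 3, Cyp4a29, with 61.7% in type 3, Cyp4x1, wholly of type 4, and Cyp4v3, with 88.4% in type 5. Of these, Cyp4a29 stands single only because the symbol rule leaves out the Cyp4a genes next to it.

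Most clusters were mosaics of types. The 18 clusters had a median span of 171 kb, from 16.4 to 600 kb, and crossed a median of 4 segments, from 1 to 8. Only 3 lay wholly in 1 type, and 6 had at least 90% of their span in 1 type. The members were all of 1 type in 7 clusters, of 2 types in 7 and of 3 types in 4. The median segment around a member was 85 kb, shorter than the median span. Like counts for other stretches of such length are not given here. Whether the mosaic is particular to P450 clusters was not tested. Over the summed spans of 3585 kb, type 1 took 57.7%, against 32.1% of chromosomes 1 to 19. Type 5 took 15.4%, against 24%, type 3 took 12.1%, against 19%, type 4 took 9.88%, against 13.6%, and type 2 took 4.85%, against 11.2%.

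The 3 uniform clusters were each of another type. Cyp26c1 and Cyp26a1 were of type 3. Cyp4f14, which inactivates leukotriene B4, and Cyp4f13 lay in 75 kb of type 4 on chromosome 17. Cyp2c55, Cyp2c65 and Cyp2c66 lay in 255 kb of type 5 (chr19:38995001-39250000), a segment that holds no other protein-coding gene whole. The cluster was 180 kb from end to end.

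The Cyp2c array on chromosome 19 alternated between long stretches of types 1 and 5. After the type 5 segment of Cyp2c55 to Cyp2c66 came Cyp2c29, wholly of type 1. Cyp2c39 (89.8%) and Cyp2c38 (100%) followed in 215 kb of type 5, and the annotated body of Cyp2c39, 222 kb long, contains that of Cyp2c38. Cyp2c67 was wholly of type 1, and Cyp2c68 had 59.5% in type 2 and 40.5% in type 1. A segment of type 1 of 410 kb (chr19:39760001-40170000) then held Cyp2c40, Cyp2c69, Cyp2c37, Cyp2c54 and Cyp2c50 whole, and no other protein-coding gene lies wholly in it. Cyp2c70, which makes the muricholic bile acids of mice, sat on its far border with 51% in type 5 and 49% in type 1.

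The Cyp2a, Cyp2b and Cyp2g genes of chromosome 7 lay mainly in type 1, which took 80.7% of the 493 kb from Cyp2b23 to Cyp2t4 and 82.3% of the 254 kb from Cyp2b13 to Cyp2a4. Cyp2b23, Cyp2t4 and Cyp2a4 lay wholly in type 1, Cyp2b13 had 96.6% in it, and Cyp2b9 had 71.4%. The segment of 525 kb that holds Cyp2a4 and Cyp2b23 (chr7:26230001-26755000) was the longest around any member and contains 7 whole protein-coding genes. The exceptions in the longer cluster were Cyp2b19, a keratinocyte enzyme, and Cyp2f2, both wholly of type 3. Cyp2g1, an olfactory enzyme, straddled a border with 50.5% in type 1 and 49.5% in type 3. Cyp2s1 and Cyp2b10, on the other side, were both wholly of type 4, while 44.3% of the 124 kb they span was of type 5 and lay between them.

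The Cyp2d array of chromosome 15 held no member of type 1, although type 1 took 33.9% of the 250 kb from Cyp2d22 to Cyp2d34. That stretch lay in the gap between Cyp2d9 and Cyp2d12. Along the cluster Cyp2d22 was of type 4, Cyp2d11 of type 3, Cyp2d10 and Cyp2d9 of type 4, Cyp2d12 of type 3 and Cyp2d34 of type 4. All but Cyp2d10, with 51.1% in type 4 and 48.9% in type 3, lay wholly in their type. The nearby pair Cyp2d40 and Cyp2d26 repeated the split, wholly of types 3 and 4. The Cyp4f array of chromosome 17 was of the same 2 types apart from Cyp4f16, wholly of type 1. There Cyp4f39 and Cyp4f15 were wholly of type 3 and Cyp4f40 wholly of type 4. Cyp4f17 had 78.5% in type 3 and 21.5% in type 1, and Cyp4f37 had 92% in type 3 and 7.96% in type 4.

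The Cyp2j and Cyp4a arrays of chromosome 4 and the Cyp3a array of chromosome 5 were mainly of type 1. From Cyp2j11 to Cyp2j5, type 1 took 72.8% of 370 kb. Cyp2j8, Cyp2j6 and Cyp2j5 lay wholly in it, Cyp2j9 lay wholly in type 2, and Cyp2j11 had 93.2% in type 5. Of the pair beside them, Cyp2j12 was wholly of type 1 and Cyp2j13 had 79.0% in type 5. In the Cyp4a cluster Cyp4a14 had 88.4% in type 2, Cyp4a10, Cyp4a31 and Cyp4a32 were of type 1 at 100%, 91.1% and 88.4%, and Cyp4b1 at the end was wholly of type 4. Of the Cyp3a clusters, Cyp3a57 (78.2%) and Cyp3a16 (100%) were of type 1, and so were Cyp3a44 (68.7%), Cyp3a25 and Cyp3a59 (both 100%).

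Neighbours in a cluster were of unlike type in 27 of 49 pairs. The other 22 (44.9%) were of the same type, against 62.5% of 18000 neighbouring pairs of protein-coding genes within 100 kb. The 2 kinds of pair differ. Member pairs are successive members of a cluster, whatever other genes lie between, while the 18000 pairs are adjacent genes. Member pairs also had no limit on their own gap, and Cyp2c38 and Cyp2c67 lay 146 kb apart. Members lay farther apart, with a median gap of 26 kb against 9.66 kb. At gaps up to 10 kb the same type was shared by 5 of 12 member pairs (41.7%), against 69.6% of all pairs. It was shared by 11 of 23 (47.8%), against 57.9%, from 10 to 50 kb, and by 6 of 14 (42.9%), against 46.3%, beyond. Of the 22 like pairs 13 were of type 1, 4 of type 4, 3 of type 5 and 2 of type 3. The unlike pairs joined types 3 and 4 in 8 cases, 1 and 2 in 7, 1 and 3 in 6, 1 and 5 in 5, and 1 and 4 in 1, Cyp4a32 and Cyp4b1.

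Some neighbours are near-copies of each other. Promoter windows of 36 neighbouring pairs could be aligned, and 9 pairs were at least 80% identical. Of those 9, 7 were of the same type, and of the other 27 pairs 8 were. Cyp2b13 and Cyp2b9 were 99.3% identical, Cyp3a25 and Cyp3a59 96%, Cyp2c40 and Cyp2c69 89%, and Cyp2a22 and Cyp2a12 87.7%, each pair of type 1. The 2 exceptions were Cyp2c68 and Cyp2c40, 83.7% identical and of types 2 and 1, and Cyp2d11 and Cyp2d10, 81.7% identical and of types 3 and 4. For scale, windows of genes of different P450 families were a median of 58.3% identical. How reads that map to more than 1 copy were treated is not given in the sources used here, so the types of near-identical copies are uncertain.

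Type borders ran through the bodies of 27 P450 genes. Of the 92 members 65 (70.7%) lay wholly in 1 type, against 68.7% of all protein-coding genes, with 48 of 67 clustered members (71.6%) and 17 of 25 single ones (68%). Of the rest, 21 crossed 2 segments and 6 crossed 3 or more. The median segment around a member was 85 kb, from 10 to 525 kb. Counted by member, the median was 215 kb in type 5 and 180 kb in type 1. A segment counts here once for each member in it. The 255 kb segment of type 5 thus counts 3 times, and the 410 kb segment of type 1 counts 5 times. Segment lengths around all protein-coding genes are not given here. The median was 60 kb for both types 3 and 4, and 47.5 kb for type 2. The 9 members of type 5 were long genes, with a median of 35.8 kb, against 7.14 kb for all protein-coding genes of type 5. In type 3 the medians were the same, 13.7 kb.

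The type at the start site was the type of the body in 68 of the 72 members with a window. The others were Cyp2j11 (type 5 by body, type 2 at the start), Cyp3a11 (2 and 4), Cyp4v3 (5 and 4) and Cyp2c39 (5 and 1). The same share over all protein-coding genes is not given here, and members wholly in 1 type could hardly differ. Cyp4v3, a fatty acid hydroxylase of the retina, is the single member with a CpG-rich window (0.759) in type 5, and its start lies in the 11.6% of the body that is of type 4.

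A pair of short motifs was searched in the windows on both strands. TATAAA, the core of the TATA box, was found in 29 of 72 members (40.3%), against 13.5% of all promoter windows. It was in 26 of 56 clustered members (46.4%) and 3 of 16 single ones (18.8%). The Cyp26a1 window printed above is one that has it. GCGTG, the core that Ahr with its partner Arnt binds, was found in 15 members (20.8%), against 39.2% of all windows. It contains a CpG, so a window free of CpG cannot match, and P450 windows were poorer in CpG than those of all genes. Neither motif was compared among windows of like composition. Of the known Ahr targets, Cyp1a1 and Cyp1b1 were among the 15 and Cyp1a2, which also has a window, was not. Matches of the 2 motifs cannot overlap. A match is not a binding site, and its lack says only that the letters are not in this window.

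Genes whose proteins work with P450 enzymes were of all 5 types. Lists of electron donors, receptors and factors, other steroid genes and other retinoid genes held 40 genes, of which 20 were of type 3 (33.8% of all protein-coding genes were), 8 of type 1, 7 of type 4, 4 of type 2 and 1 of type 5. Type 3 held 11 of 17 receptors and factors and 3 of 8 steroid genes. The 11 include Nr1h4, with 45% in type 3, 29.8% in type 4 and 25.2% in type 5. They also include Hnf4a, with 50.2% in type 3 and 49.8% in type 4. Type 3 tied with type 1 among 7 electron donors, at 3 genes each, and with type 4 among 8 retinoid genes, at 3 each. Por, the reductase that feeds electrons to P450 enzymes of the endoplasmic reticulum, was wholly of type 3. Fdxr, which starts electron transfer in mitochondria, was of type 4. The receptors of type 3 included Nr1i2 (67.7%) and Nr1i3 (100%), the drug sensors that induce Cyp3a and Cyp2b genes, and Ppara (100%), which induces Cyp4a genes.

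Partners and enzymes of 1 pathway did not always share a type. Ahr was wholly of type 2, while its targets Cyp1a1, Cyp1a2 and Cyp1b1 were of types 3 and 4, and Arnt was wholly of type 1. Vdr, the vitamin D receptor, was wholly of type 4, and the 3 vitamin D enzymes were of type 3. Star, which brings cholesterol to Cyp11a1, was wholly of type 1, and Hsd3b1, which acts after Cyp11a1, wholly of type 2. Of the enzymes that make retinoic acid, Aldh1a2 (62.7%) and Aldh1a3 (100%) were of type 4 like Cyp26b1, and Aldh1a1 was wholly of type 5.

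Enzymes that conjugate P450 products, which also lie in arrays, gave a comparison. Of 62 genes of the Ugt, Gst and Sult families, 15 of 51 clustered (29.4%) and 0 of 11 single ones were of type 1, against 37.2% of all protein-coding genes. Type 3 held 20 clustered genes (39.2%) and 7 single ones (63.6%), against 33.8%. Type 4 held 5 clustered genes (9.8%) and 1 single one (9.09%), against 14% of all genes and 28% of single P450 genes. Of 22 Gst genes 16 were of type 3, of 21 Sult genes 10 were of type 1, and of 10 Ugt2 genes 8 were of type 5. The 9 Ugt1a genes, which overlap each other, were of types 3 (6 genes) and 4 (3 genes).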

How the data were processed

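H2Aub and H3K27me3 were profiled by CUT&RUN in 29 libraries. The build was mm10, and the tools were deepTools 3.0.2, Picard 2.8.0, Bowtie2 2.3.4.3 and Trim Galore 0.4.5, per the submitters' processing notes. The authors deposited 1 ChromHMM segmentation whose value is a type label from 1 to 5. The libraries given to it, the key to its types and its handling of multiply mapped reads are all not given in the sources used here. Where segments overlapped, the shorter was used.

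Genes came from the RefSeq table of GRCm38.p6, and strands and promoter windows from its promoter table (first listed window per gene). A gene took the type covering the largest share of its body. Observed over expected CpG is the CpG count times the window length, divided by the product of the C and G counts. Windows were aligned globally with Biopython 1.88 (match 1, mismatch -1, gap opening -2, extension -0.5). Python 3.11.15 and pandas 2.3.3 were used. The type assignment was tested on simulated data.

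Members, role lists and partner lists were chosen with earlier results of these data known. Any member could be named. The share of the body in its type was given for the single members of the role lists, the ends of clusters and unlike neighbours. Partners are named as examples. Protein sequences were not used here. Alternatives varied the position that gives the type, the distance between clustered members, the symbol rule, the weight of clusters and overlapping segments.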

Additional observations from a re-analysis of the deposited data

How the results depend on the processing

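Of 246 alternative values for 39 results, 10 moved past the exact 95% binomial interval of a share or the spread of a median. Genes of a cluster are not independent draws, so that interval only sorts the values by size and shows no stability. Within it, single genes of type 4 went from 7 of 25 (28%) to 7 of 16 (43.8%) by the start site. The count stayed at 7, while single genes without a window were left out. Single genes of type 1 went from 8% to 15.4% with wider symbols, and clusters in 1 type from 16.7% to 33.3% at 90% of the span. With each cluster counted once, type 3 held 17 of 43 units (39.5%) and type 2 held 0 of 18 clusters. With clusters defined at 50 kb, 26.3% of single genes were of type 1. By the type at the start site, which 16 single and 10 role-list members have, single genes of types 2 and 5 and role-list genes of types 1 and 2 each came to 0. Cyp7a1, Cyp7b1 and Cyp39a1 have no window and dropped out, so their start sites were not read. Cyp4v3 was of type 4 at its start. Single genes of type 5 were also 0 by the type at the higher end and among genes at least 90% in 1 type, since Cyp4v3 is the only one. With 5 kb added on each side, 46 of 92 members (50%) lay wholly in 1 type. The symbol rule leaves out 9 P450 genes, of which 7, among them Cyp4a12a, Cyp4a12b, Cyp4a30b, Cyp3a41a and Cyp3a41b in the arrays, were of type 1 and 2, Ptgis and Tbxas1, of type 3. Shares of the 25 single genes rest on few genes, borders are known to 5 kb, and the depth is unknown. No paired analysis was possible because the segmentation holds no column per library.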
